A study of Mus musculus with 3 samples.

Results

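Estrogen receptor α (ERα) binding was examined at 42 genes of the nuclear receptor superfamily, which were taken by name from a fixed list and which were all present among the 22380 protein-coding genes of the annotation. The list does not hold every gene of the superfamily. The data were the ERα ChIP-seq peak lists of 2 replicates from mammary glands of wild-type (WT) BALB/c mice (BALB/cJ in the study's methods), whose ovaries were removed at 6 weeks and which, after 10 days of rest, received 100 ng of estradiol 2 h before collection. Each replicate was a pool of inguinal glands from several mice, 1 input DNA library served both, and there was no ChIP-seq library from mice without estradiol, so a change of binding by estradiol cannot be read from the lists. The gland was used whole with the lymph node removed, so fat, stroma and epithelium were all present, and peak lists hold no expression level by which the tissue could be checked against its markers. The replicate 1 list held 9607 peaks and the replicate 2 list 6819, and the lists do not hold the depth of the libraries.

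Nuclear receptors are transcription factors, and many of them are switched by small lipophilic ligands such as steroid hormones, thyroid hormone, retinoids, vitamin D, fatty acids and oxysterols. Retinoid X receptors (RXRs) are the common partners with which the thyroid, retinoid, vitamin D and lipid-sensing receptors form dimers on DNA, whereas steroid receptors such as ERα bind as dimers of their own kind. The estrogen response element (ERE) is the sequence GGTCA followed by 3 bases of any kind and TGACC. In the mammary gland, ERα is found in a subset of luminal epithelial cells, and PPARγ is the master regulator of the surrounding adipocytes.

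A shared region was the stretch covered by a peak of replicate 1 and a peak of replicate 2 that overlapped by at least 1 bp, and it was assigned to a receptor gene when its midpoint lay within 100 kb of any annotated transcription start site (TSS) of that gene. The score of a peak, as the authors' peak caller gave it, is the negative log10 of the p-value against input multiplied by 10, and both enrichment and read depth raise it. Regions were ranked by the lower of their scores. An ERE was sought in the 400 bp around each midpoint, with at most 1 mismatch.

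The sequences that carried the ERE in the regions described in full, apart from that of Nr3c1, are shown on the plus strand of NCBIM37 (mm9), because they are the part of each region in which ERα contact with DNA would be looked for. Capitals mark the ERE, and lower case marks 8 bases on each side. A match is a description of the sequence and not a measured contact point.
Thra and Nr1d1, chr11:98558358-98558370, no mismatch: ccagtcctGGTCACAGTGACCcagcattg
Nr4a1, chr15:101150183-101150195, no mismatch: gccaagcaGGTCACACTGACCtatgacct
Rxrb, chr17:34168104-34168116, no mismatch: tttgtgcaGGTCACCATGACCctcgtgtc
Nr1h2, chr7:51904777-51904789, no mismatch: cagtgtgtGGTCACTCTGACCctgagttg
Rxra, chr2:27453887-27453899, 1 mismatch: tagtcttaTGTCATCCTGACCcaagctag
Rxra, chr2:27674448-27674460, 1 mismatch: atcctgtgGGTCACTGTGATCctgggagc
Rxra, chr2:27668208-27668220, 1 mismatch: actgtagaAGTCAGGATGACCttgctgaa
Rarg, chr15:102016925-102016937, 1 mismatch: agagagcaAGTCAGTGTGACCtgagaggg
Nr0b2, chr4:133113417-133113429, 1 mismatch: tcaccctgGGTCAGGGTGACTgacctgaa
Nr1i2, chr16:38371155-38371167, 1 mismatch: gtgttataGTTCATCTTGACCttgcctct
Nr4a1, chr15:101195650-101195662, 1 mismatch: attacataGGTGAGGGTGACCttccattg
Nr4a1, chr15:101021745-101021757, 1 mismatch: gaggttcaGGTCTCTGTGACCtgttgctc
Nr5a1, chr2:38475116-38475128, 1 mismatch: gaattccaGGTCACACTGACAtcccctgg
Ppara, chr15:85567137-85567149, 1 mismatch: ggcaacagGGTCACAGTGACTttcccaag
Nr6a1, chr2:38809341-38809353, 1 mismatch: aggtatggGGTCAAACTGGCCtgtccaac

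Of the 42 receptor genes, 22 (52.4%, exact Clopper-Pearson 95% interval 36.4% to 68.0%) had at least 1 shared region within 100 kb, beside 38.1% of all protein-coding genes. Rxra, with 12 regions, and Nr4a1, with 10, stood at the head, followed by Pparg with 6 and Hnf4a with 4. These 4 genes were 9.52% of the list, beside 4.71% of protein-coding genes with 4 or more regions, and 0.197% of protein-coding genes had 10 or more. In the separate lists, 28 receptor genes (66.7%) had a replicate 1 peak and 24 (57.1%) a replicate 2 peak, beside 49.6% and 40.2% of protein-coding genes. The members were chosen with earlier results of these data known and 2 replicates give no spread between animals, so no test was made of these differences, and intervals cover counting error only.

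**Figure D1:**
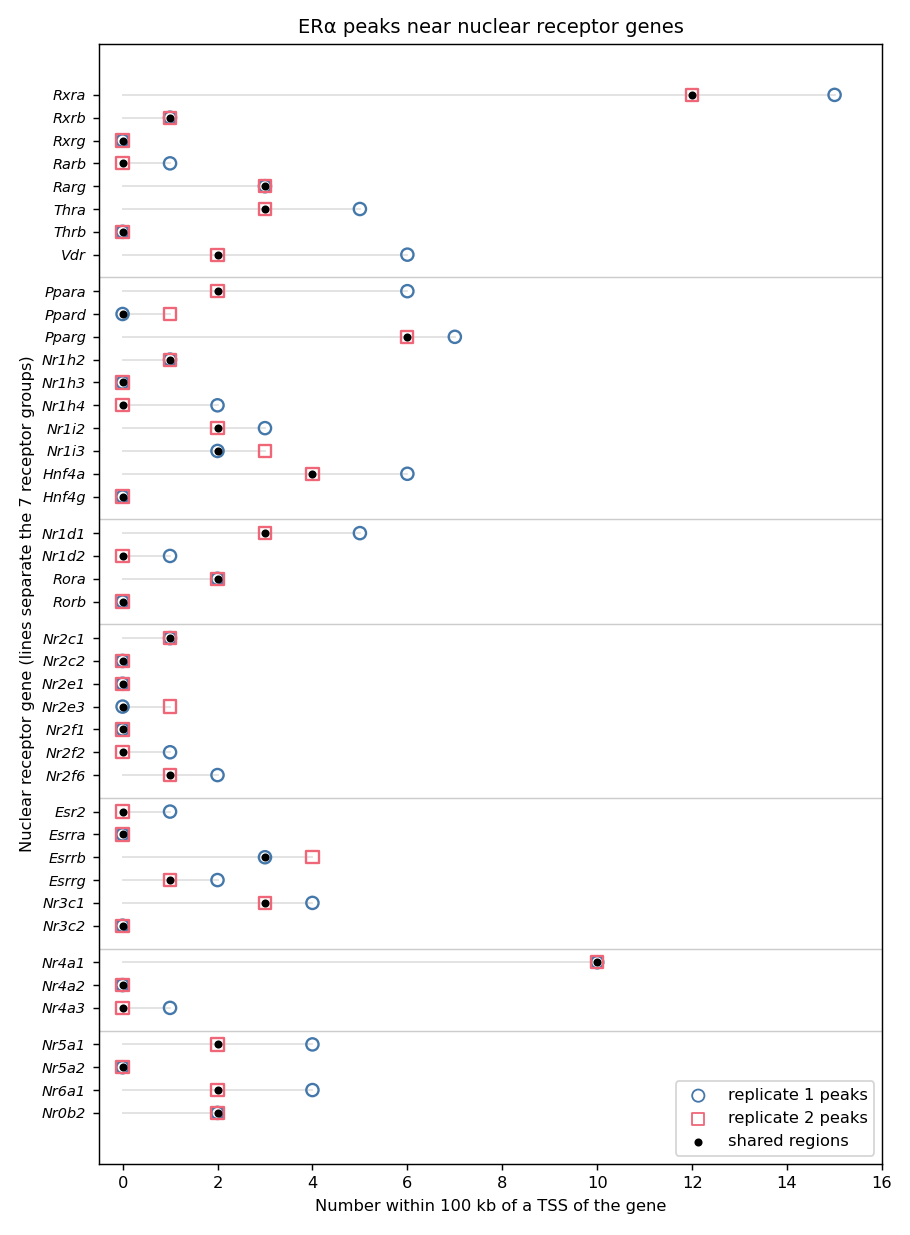
Number of ERα peaks (horizontal axis, count within 100 kb of a TSS) at each of the 42 nuclear receptor genes (vertical axis), for replicate 1 (blue circles), replicate 2 (red squares) and the shared regions (black points). Rxra (12 shared regions) and Nr4a1 (10) lie far to the right, and 20 genes have their black point at 0.

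The 22 genes held 64 different shared regions in 68 pairs of a gene and a region, since 4 regions lay within reach of 2 receptor genes each. The median was 1 region per receptor gene and 0 per protein-coding gene, and the means were 1.62 and 0.753. Rxra and Nr4a1 together made up 22 of the 68 pairs (32.4%). For the other 40 receptor genes the mean was 1.15.

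Genes differ in how much of the genome lies within 100 kb of their TSSs, which is called their territory here. The median territory was 213 kb for the receptor genes and 200 kb for all protein-coding genes, and the mean number of shared regions per Mb of territory was 6.34 and 3.47 (4.48 for the receptor genes without Rxra and Nr4a1). Among genes with a territory under 210 kb, 11 of 17 receptor genes had a shared region (64.7%, 95% interval 38.3% to 85.8%), beside 35.2% of protein-coding genes. The shares were 2 of 7 receptor genes beside 44.8% of protein-coding genes from 210 kb to under 220 kb, 3 of 7 beside 46.5% from 220 kb to under 260 kb, and 6 of 11 beside 49.2% at 260 kb or more. In the order of territory, the 10 receptor genes with the shortest had a region in 9 cases, with Esrra, the gene of estrogen-related receptor α, as the exception, and the next 10 had one in 2 cases. The share in the shortest class thus moves with its limit, and all these limits were chosen after the data were seen. No share of protein-coding genes was computed for these groups of 10, so the counts of 9 and 2 have no background.

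**Figure D2:**
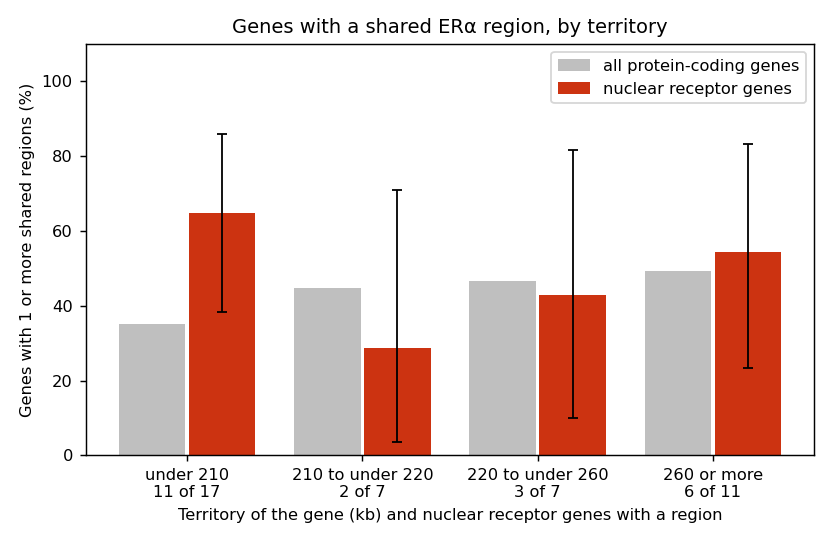
Share of genes with at least 1 shared region (vertical axis, %) by territory in kb (horizontal axis) for all protein-coding genes (grey bars) and nuclear receptor genes (red bars, with exact 95% intervals). The receptor bar is above the grey one under 210 kb (11 of 17 genes against 35.2%), and its interval spans the height of the grey bar in the other classes.

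Most of the regions lay far from the receptor's own promoter. The median distance from the nearest TSS of the receptor gene was 52.0 kb, beside 47.1 kb over all pairs of a protein-coding gene and a region within 100 kb. Of the 68 pairs, 3 were proximal, from 1 kb upstream to 400 bp downstream of the TSS (4.41%, 95% interval 0.919% to 12.4%), 25 were distal upstream (36.8%, 25.4% to 49.3%) and 40 were distal downstream (58.8%, 46.2% to 70.6%). Over all protein-coding genes these shares were 2.19%, 48.2% and 49.6%. By midpoint, 32 of the 64 regions were intergenic, 28 were in an intron and 4 in an exon of a protein-coding gene, and 12 lay inside one of the receptor genes. A receptor TSS was the nearest TSS of any gene for 20 of the 64 regions (31.2% of regions). Counted by gene, 8 of the 42 receptor genes had such a region, beside 11.8% of protein-coding genes. The 31.2% is a share of regions and has no counterpart in the 11.8%, which is a share of genes. For the rest of the 64 regions another gene was closer, and peak lists do not show which gene a distal region acts on.

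**Figure D3:**
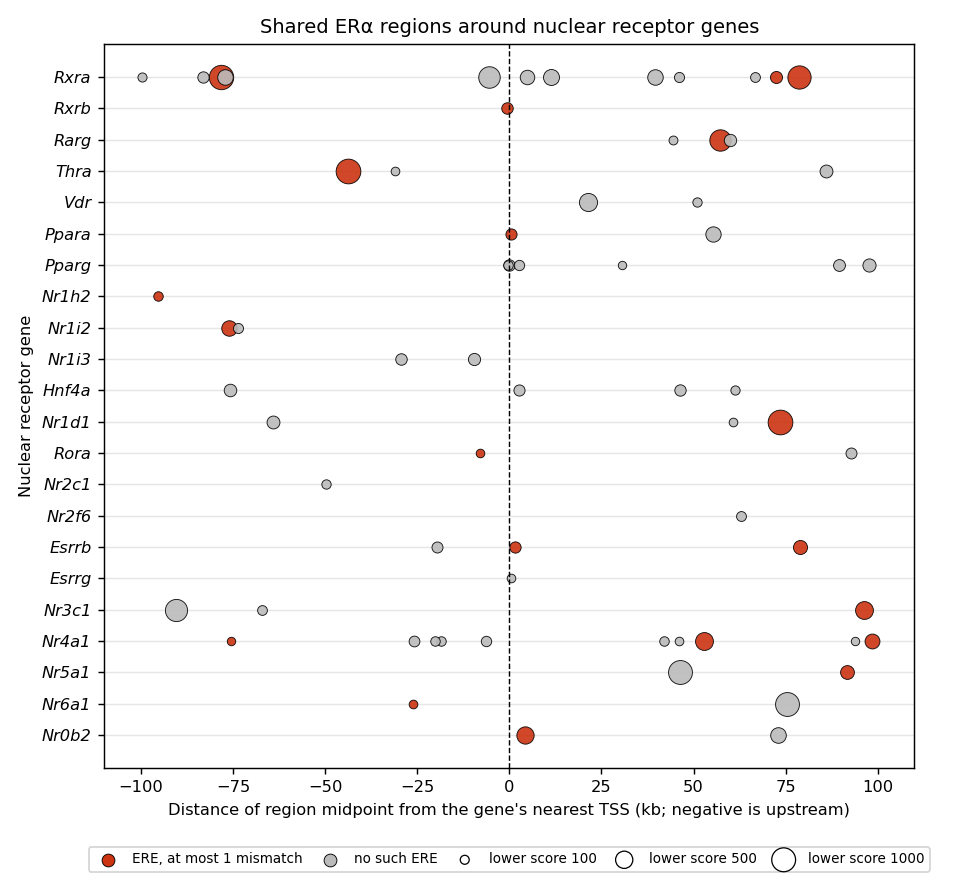
Position of each shared region relative to the nearest TSS of its receptor gene (horizontal axis, kb, negative is upstream) for the 22 genes with at least 1 region (vertical axis). Area of the points grows with the lower score and red marks an ERE with at most 1 mismatch. Rxra, Nr4a1 and several other genes have regions on both sides, and 3 regions, at Rxrb and Pparg, are proximal.

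Among the RXRs and the receptors for thyroid hormone, retinoic acid and vitamin D, 5 of 8 genes had shared regions, 21 different ones in all. The share over all protein-coding genes was 38.1%. The groups of receptors are small, and differences between them were not tested. Rxra (ENSMUSG00000015846, chr2:27531960-27618477, plus strand) encodes RXRα and had 15 peaks in replicate 1 and 12 in replicate 2, and all 12 of the latter were shared. Its strongest region, chr2:27453385-27454176, was intergenic and 78.2 kb upstream, and a Gm13421 TSS was nearer to it. The scores of this region were 1536 (rank 227 in replicate 1) and 1043 (rank 288 in replicate 2). The next, chr2:27674050-27674716, lay 78.7 kb downstream with scores of 1214 and 948, and a Col5a1 TSS was nearer to it. Both held an ERE with 1 mismatch.

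Inside Rxra, intronic regions lay 5.51 kb upstream (chr2:27558881-27559728, scores 1319 and 804), 11.2 kb downstream (739 and 423) and 4.73 kb downstream (468 and 339) of a Rxra TSS. None of these intronic regions held an ERE with at most 1 mismatch in its window. The other 7 regions of Rxra were intergenic, with scores from 149 to 637 in replicate 1 and from 105 to 396 in replicate 2, and one of them, 72.5 kb downstream, held an ERE with 1 mismatch. Of the 12 regions, 7 were nearest to a Rxra TSS, and 8 were found when both lists were cut at a p-value of 1e-20. With only the most 5′ TSS of each gene, Rxra had 7 regions.

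Rxrb (ENSMUSG00000039656, chr17:34168757-34175338, plus strand), which encodes RXRβ, had 1 peak in each replicate, and they overlapped. The region, chr17:34167780-34168652, had scores of 310 and 196 and lay at -541 bp from a Rxrb TSS, as measured at its midpoint. It lay in an exon of Slc39a7, a zinc transporter gene on the opposite strand whose TSS was nearer, and it held an ERE without mismatch. This region was lost at a p-value of 1e-20, and also when the midpoints of both peaks were required to be at most 100 bp apart. No peak lay near Rxrg, the gene of RXRγ, in either list.

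Thra (ENSMUSG00000058756, chr11:98601952-98630320, plus strand), which encodes thyroid hormone receptor α, had 5 replicate 1 peaks, 3 replicate 2 peaks and 3 shared regions. Its 3′ end overlaps that of the clock gene Nr1d1 on the other strand, so both genes have the same 3 regions. The strongest of them, chr11:98557904-98558648, was the highest-ranked region of the whole list of receptor genes, with scores of 1191 (rank 390) and 1076 (rank 275) and an ERE without mismatch. It was intergenic, 43.7 kb upstream of Thra. The nearest TSS, from which it lay at -4301 bp, was that of Csf3, the gene of a granulocyte growth factor. The other regions, in an intron of Rapgefl1 (469 and 257) and in an exon of Med24 (90.5 and 98.4), were also nearer to those genes.

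Rarg (ENSMUSG00000001288, chr15:102065369-102087948, minus strand), the gene of retinoic acid receptor γ, had 3 peaks in each replicate and 3 shared regions. The strongest, chr15:102016574-102017210, was 57.1 kb downstream with scores of 999 and 794, lay within Csad and held an ERE with 1 mismatch. Vdr (ENSMUSG00000022479, chr15:97684856-97741061, minus strand), the gene of the vitamin D receptor, had 6 replicate 1 peaks against 2 in replicate 2. Its shared regions lay within Hdac7, a histone deacetylase gene, at 21.2 kb downstream (714 and 556) and 50985 bp downstream (242 and 112), and neither held an ERE with at most 1 mismatch. The 4 replicate 1 peaks of Vdr without a partner had scores from 130 to 166. Thrb had no peak in either list.

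Of the 10 lipid and xenobiotic sensors, 6 had shared regions (beside 38.1% of protein-coding genes), 17 in all. Pparg (ENSMUSG00000000440, chr6:115311239-115440419, plus strand), which encodes the adipocyte regulator PPARγ, had 7 replicate 1 peaks, 6 replicate 2 peaks and 6 shared regions. It had 2 proximal regions, at different TSSs. One, chr6:115310795-115311483, had its midpoint at -100 bp from the most 5′ TSS with scores of 572 and 194, and the other, chr6:115371591-115372070, at -253 bp from an internal TSS with scores of 139 and 120. In all, 2 of 42 receptor genes (4.76%) had a proximal shared region, Pparg and Rxrb, beside 1.58% of protein-coding genes.

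The other regions of Pparg were intronic at 2.52 kb and 30.7 kb downstream of a TSS, with scores of 166 and 148 and of 125 and 81.6, and intergenic at 89.5 kb (579 and 211) and 97.5 kb (478 and 271) downstream. No region of Pparg held an ERE with at most 1 mismatch. The promoter sequence covered by the proximal peak at the most 5′ TSS is shown because ERα peaks lay on it without such an ERE. It runs up to the base before the TSS, chr6:115310989-115311238 on the plus strand, and capitals mark the closest ERE-like sequences, with 2 mismatches each.
Pparg promoter: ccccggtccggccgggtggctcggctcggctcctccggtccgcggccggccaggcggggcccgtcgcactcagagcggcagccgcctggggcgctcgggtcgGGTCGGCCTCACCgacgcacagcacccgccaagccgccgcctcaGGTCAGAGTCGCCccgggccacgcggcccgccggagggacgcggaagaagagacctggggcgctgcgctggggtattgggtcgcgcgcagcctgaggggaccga

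Ppara (ENSMUSG00000022383, chr15:85565413-85633249, plus strand), the gene of PPARα, which governs fatty acid oxidation, had 6 replicate 1 peaks, 2 replicate 2 peaks and 2 shared regions. One lay in its intron, 556 bp downstream of a TSS (chr15:85566865-85567369, scores 297 and 181), just outside the proximal limit of 400 bp, and held an ERE with 1 mismatch. The other was intergenic, 55.3 kb downstream, with scores of 584 and 383. The 4 replicate 1 peaks of Ppara without a partner had scores from 114 to 122 and were all upstream of the gene. For Ppard, the gene of PPARδ, there was no replicate 1 peak and 1 replicate 2 peak with a score of 101.

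Nr1h2 (ENSMUSG00000060601, chr7:51804986-51809321, minus strand), the gene of the oxysterol receptor LXRβ, had 1 shared region, chr7:51904494-51904969, with low scores of 118 and 128 and an ERE without mismatch. It lay 95.4 kb upstream, in an intron of the myosin gene Myh14. Nr1h3, the gene of LXRα, had no peak. The xenobiotic receptor genes Nr1i2 (ENSMUSG00000022809, chr16:38248409-38294910, minus strand) and Nr1i3 had 2 shared regions each. For Nr1i2, both lay within Popdc2, 76.2 kb (484 and 394) and 73.7 kb (220 and 138) upstream. Hnf4a (ENSMUSG00000017950, chr2:163332544-163398646, plus strand), a regulator of hepatocytes and gut epithelium, had 4, with scores from 110 to 322 in replicate 1 and from 116 to 241 in replicate 2. One of these lay in an intron of Hnf4a, 2.58 kb downstream of a TSS, another in an intron of Ttpal, and a Hnf4a TSS was the nearest TSS for none of them. None of the regions of Nr1i3 and Hnf4a held an ERE with at most 1 mismatch.

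The clock receptors differed by gene. Nr1d1 (ENSMUSG00000020889, chr11:98629246-98636647, minus strand), the gene of REV-ERBα, had the 3 regions that it had in common with Thra, and the strongest lay 73.5 kb downstream of it. A replicate 1 peak with a score of 143 and no partner lay 1623 bp downstream of a Nr1d1 TSS. Rora, the gene of RORα, had 2 shared regions, Nr1d2 had 1 replicate 1 peak alone, and Rorb had no peak. Of the 7 orphan receptors of the NR2 group, 2 had a shared region, beside 38.1% of protein-coding genes. They were Nr2c1, with scores of 113 and 154, and Nr2f6, with 257 and 132.

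Of the 6 steroid and estrogen-related receptors, 3 had shared regions, beside 38.1% of protein-coding genes. Esr2 (ENSMUSG00000021055, chr12:77221406-77278246, minus strand), which encodes the second estrogen receptor, ERβ, had none: a single replicate 1 peak with a score of 94.97 lay at -77824 bp, and replicate 2 had no peak. Nr3c1 (ENSMUSG00000024431, chr18:39570199-39650955, minus strand), the glucocorticoid receptor gene, had 3 intergenic regions. Their scores were 1121 and 857 at 90.5 kb upstream, 763 and 537 at 96.4 kb downstream and 321 and 128 at 67.3 kb upstream, so the stronger of them lay near the limit of 100 kb, and there were none within 50 kb. The region at 96.4 kb held an ERE with 1 mismatch and lay at -1438 bp from a Gm15337 TSS. For the other regions of Nr3c1 the nearest TSS was that of Gm10008, so a Nr3c1 TSS was the nearest for none. The gene of the mineralocorticoid receptor, Nr3c2, had no peak.

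Estrogen-related receptors are orphan receptors that resemble ERα in sequence and are not switched by estrogen. Esrrb had 3 shared regions. The strongest was intergenic, 79.0 kb downstream and nearer to an AC102689.1 TSS, with scores of 495 and 316 and an ERE with 1 mismatch. An intronic region 1.60 kb downstream of a TSS had scores of 280 and 185 and also an ERE with 1 mismatch. The other intronic region, 19.8 kb upstream, had scores of 303 and 175 and no such ERE. Esrrg had 1 region, at 428 bp downstream of a TSS, with scores of 89.7 and 93.5, and Esrra had none.

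The NR4A receptors are products of immediate early genes and act without a known requirement for a ligand. Nr4a1 (ENSMUSG00000023034, chr15:101097277-101105223, plus strand), which encodes NUR77, had 10 peaks in replicate 1, 10 in replicate 2 and 10 shared regions, so both lists held the same sites. With both lists cut at 1e-20, 2 of the 10 were found, and a Nr4a1 TSS was the nearest for 3 of them. The strongest region, chr15:101149890-101150565, was intergenic, 53.0 kb downstream and nearer to a 6030408B16Rik TSS, with scores of 633 and 540.

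Its ERE without mismatch shares its right arm with a direct repeat of AGGTCA with 1 base between the copies, the type of element that RXR dimers bind, so that 3 copies of the core lie in a row. It is printed here from chr15:101150183 with both elements in capitals because it was the only direct repeat of this kind in the windows of the 64 regions: agcaGGTCACACTGACCTATGACCTcctg
The next region of Nr4a1, 98.5 kb downstream with scores of 597 and 359, lay in an intron of the keratin gene Krt80. The regions upstream within 50 kb, at 25.8 kb, 20.2 kb, 18.7 kb and 6.29 kb, had scores from 139 to 371 in replicate 1 and from 118 to 165 in replicate 2. Nr4a2 had no peak in either list, and Nr4a3 had 1 replicate 1 peak with a score of 88.5.

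Nr5a1 and Nr6a1 lie next to each other on chromosome 2. An intergenic region, chr2:38520135-38520797, to which a Gpr144 TSS was the nearest, had scores of 1199 (rank 381) and 1001 (rank 312). It was 46.2 kb downstream of Nr5a1 (ENSMUSG00000026751, chr2:38548176-38570062, minus strand), the gene of steroidogenic factor SF1, and 75.5 kb downstream of Nr6a1 (ENSMUSG00000063972, chr2:38578890-38783208, minus strand). Its best ERE-like sequence had 2 mismatches. Each of these genes had 4 replicate 1 peaks and 2 replicate 2 peaks. The region of Nr5a1 in Psmb7 had scores of 412 and 303, and that of Nr6a1 in Olfml2a had 123 and 90.3.

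Nr0b2 (ENSMUSG00000037583, chr4:133109291-133112451, plus strand) encodes SHP, a receptor without a DNA-binding domain that represses other nuclear receptors. It had 2 peaks in each replicate and 2 shared regions. One lay just past the 3′ end of the gene, 4.29 kb downstream of its TSS (chr4:133113217-133113937, scores 621 and 502), with an ERE with 1 mismatch. The other was in an intron of Zdhhc18, 72.9 kb downstream, with scores of 424 and 401. Neither was found when the midpoints of both peaks were required to be at most 100 bp apart.

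Motifs were counted in the 64 windows and set beside all 6243 shared regions on assembled chromosomes. An ERE with at most 1 mismatch was present in 19 windows (29.7%, exact 95% interval 18.9% to 42.4%), beside 31.1% of all shared regions. Of 120 windows that lay 5 kb to each side of the receptor regions and overlapped no peak, 0 held one (95% interval up to 3.03%), and over the flanks of all shared regions the share was 1.10%. The 19 windows belonged to regions of 15 receptor genes. Their median lower score was 316, and it was 174 for the 45 regions without an ERE, beside 246 and 150 over all shared regions.

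The AP1 element TGACTCA, on either strand, was found in 5 receptor windows (7.81%, 2.59% to 17.3%), beside 16.7% of all shared regions and 7.10% of their flanks. CAAGGTCA, the element bound by SF1 and the estrogen-related receptors, was found apart from any ERE in 2 windows (3.12%, 0.381% to 10.8%). These were at Hnf4a and Nr3c1, and the element was in 6.98% of all shared regions and 3.01% of their flanks. A forkhead element, TGTTTAC or TATTTAC, was in 8 windows (12.5%, 5.55% to 23.2%), beside 14.0% of all shared regions and 10.7% of their flanks. Direct repeats of AGGTCA with 1 or 4 bases between the copies were in 1 and 0 windows, beside 0.128% and 0.0961% of all shared regions. At 64 windows the intervals are wide, and each of those for the ERE, AP1, SF1 and forkhead elements includes the share over all shared regions. None of the 6 elements was found in 33 windows (51.6%, beside 44.7%).

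**Figure D4:**
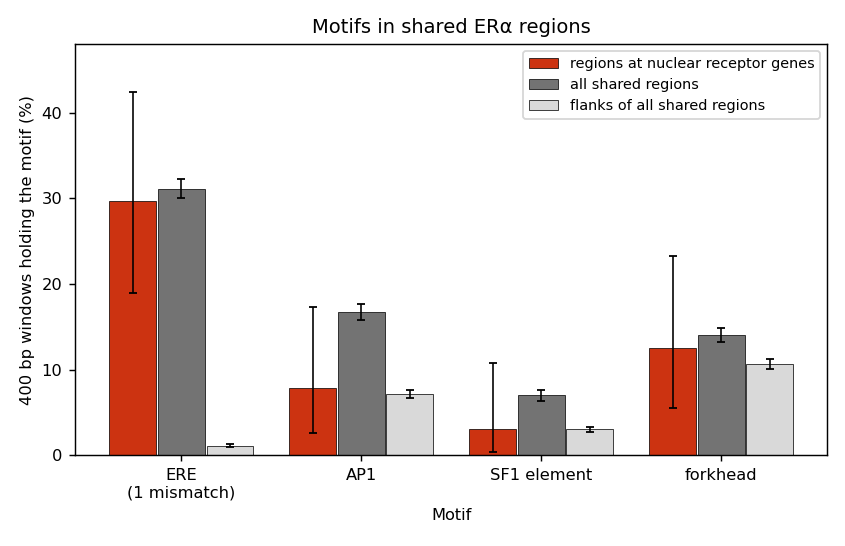
Share of 400 bp windows holding each motif (vertical axis, %) in the 64 regions at nuclear receptor genes (red), in all shared regions (dark grey) and in windows 5 kb to each side (light grey), with exact 95% intervals. The ERE is at 29.7% in the receptor regions and 31.1% in all shared regions, against 1.10% in the flanks.

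The scores of the receptor regions ran from 83.4 to 1536 in replicate 1, with a median of 301, and from 81.6 to 1076 in replicate 2, with a median of 192. The median of the lower score was 190 (quartiles 119 and 386), beside 168 (111 and 330) over all shared regions, and 7 regions (10.9%) were among the highest 10% of all shared regions, with a lower score above 688. Replicate 1 had the higher score in 55 of the 64 regions, and its ratio to replicate 2 had a median of 1.35, beside 1.31 over all shared regions. Across the 64 regions, Pearson's r was 0.922 for the log10 scores and Spearman's rho was 0.907. Regions are not independent replicates, since all of them come from the same 2 libraries.

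**Figure D5:**
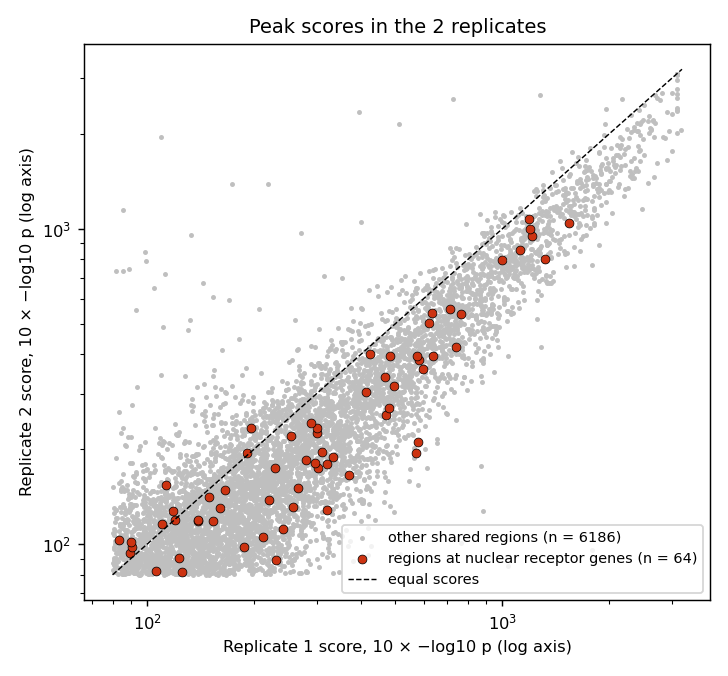
Score of each shared region in replicate 1 (horizontal log axis) and replicate 2 (vertical log axis), as the caller's p-value on the negative log10 scale multiplied by 10, for regions at nuclear receptor genes (red, 64) and elsewhere (grey). Red points follow the grey cloud, 55 of 64 lie below the line of equal scores, and none exceeds 1536 in replicate 1.

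Of the 20 receptor genes without a shared region, 6 had replicate 1 peaks only (Rarb, Nr1h4, Nr1d2, Nr2f2, Esr2 and Nr4a3), 2 had replicate 2 peaks only (Ppard and Nr2e3) and 12 had no peak (Rxrg, Thrb, Nr1h3, Hnf4g, Rorb, Nr2c2, Nr2e1, Nr2f1, Esrra, Nr3c2, Nr4a2 and Nr5a2). The lists hold only peaks past a p-value of 1e-08, so binding below that level is not shown by them. The peak of Rarb, the retinoic acid receptor β gene, was on its promoter at -83 bp from a TSS, with a score of 85.6. Around the receptor genes there were 29 replicate 1 peaks without a partner, with scores from 80.1 to 214, and 4 replicate 2 peaks without a partner, from 81.3 to 118. At the limit of distance, the nearest regions inside were at 98472 bp (Nr4a1) and -99858 bp (Rxra), and 2 regions of Pparg lay just outside it at 100144 and 101210 bp, with scores of 334 and 109 and of 395 and 184.

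Listed separately were genes that make, carry or break down the ligands of these receptors, together with Fkbp5, which encodes a co-chaperone of the glucocorticoid receptor. Of the 34 genes, 33 were found in the annotation. A shared region lay within 100 kb of 18 of them (54.5%, 95% interval 36.4% to 71.9%), with a median of 1 per gene, beside the 38.1% of protein-coding genes. They were 6 of 13 genes of retinoid handling, 2 of 5 for thyroid hormone and 2 of 3 for vitamin D. The rest were 3 of 3 in the gluco- and mineralocorticoid group, which held Fkbp5, 3 of 5 for fatty acids, sterols and bile acids and 2 of 4 for estrogen. The strongest regions were those near Cyp46a1, a cholesterol hydroxylase (1594 and 1196, at -99136 bp), Cyp7b1, an oxysterol hydroxylase (1139 and 1120, at -55517 bp), Hsd17b1, which makes estradiol from estrone (1034 and 883, 56218 bp downstream) and Stra6, a retinol transporter (585 and 722, 90955 bp downstream). A Cyp7b1 TSS was the nearest of any gene to its region. For the regions near Cyp46a1, Hsd17b1 and Stra6 the nearest TSS was that of another gene, Ccdc85c, Tubg1 and Pml in that order. The Hsd17b1 region held an ERE without mismatch. No region was common to these genes and the receptor genes.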

How the data were processed

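Per the labels and the study's methods, the authors used BWA for alignment to mm9 and MACS for peak calling, which was done separately for each ERα ChIP replicate against 1 input at a p-value of 1e-08. The MACS version is not given in the sources used here. The deposited score of a peak is the negative log10 of the p-value multiplied by 10, and no score was below 80. Replicates were not pooled before calling, and the lists hold no reads or signal. The study gives read totals of the libraries, which were not used here.

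Midpoints of shared regions were assigned to TSSs of any annotated transcript in GENCODE version 1 (Ensembl 65, NCBIM37, the assembly of mm9), and all peaks on assembled chromosomes ended within the reference chromosomes. Motifs were searched on both strands without mismatch, except for the ERE. Exact Clopper-Pearson intervals (95%) are given, and no p-value was computed. Members and lists were chosen with earlier results of these data known. Described in full were the 12 receptor genes with the highest region, those with 4 or more regions, a proximal region or an ERE without mismatch, and Esr2 and the Nr4a genes. Nr1i3, Rora, the NR2 genes, Esrrb, Esrrg and Rarb were described after their values were seen. Alternatives were stricter p-values (1e-10 and 1e-20), other overlaps, TSS sets, distances and motif settings, and each replicate alone. The overlap, assignment and motif search were tested on simulated data. The tools were samtools 1.23.1, pysam 0.24.0, Python 3.11.15, scipy 1.17.1, numpy 2.4.6 and, for plots, matplotlib 3.10.9.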

Additional observations from a re-analysis of the deposited data

How the results depend on the processing

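The number of receptor genes with a shared region, 22, stayed between 16 and 28 under every alternative but one, and under each alternative the share of receptor genes was above that of protein-coding genes. The exception was the requirement that a receptor TSS be the nearest of any gene, which left 8 genes and 20 regions in place of 64. The number of regions was also 28 at a p-value of 1e-20 and 33 within 50 kb. It was 68 with replicate 2 alone and 93 with replicate 1 alone. The proximal share, 4.69% of the 64 regions, was 0% at a p-value of 1e-20, and otherwise between 3.57% and 10.0%. The ERE share was 42.9% at a p-value of 1e-20, 6.25% with no mismatch and 70.3% with at most 2, and over all shared regions it was 43.1%, 6.60% and 67.4% at the same settings. The cause of these shifts was not tested, beyond the looser or stricter settings themselves. Of 190 counts for the 19 receptor genes described in full, 139 stayed within 1.5 times of the reported count, 43 were lower and 8 higher. The higher ones were those of Vdr, Ppara, Thra, Nr1d1, Nr5a1, Nr6a1, Esr2 and Nr4a3 with replicate 1 alone. On the linear scale, r of the scores was 0.959. No paired analysis was possible because the ChIP replicates form 1 group and the input has no peak list. Absent peaks are limited by the cutoff and by the depth, which was not used here.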
